A study of Mus musculus with 6 samples.

Results

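The genes described here are 52 genes of the unfolded protein response and the heat shock response, read by gene symbol from a table of 31950 genes measured in mouse liver. They fall into 9 roles, and their names are given with their values below. All 52 symbols are in the table, on 53 rows, because *Ddit3* has a second row (ENSMUSG00000116429) with a mean of 0.0195 FPKM that was too low to test. All 52 genes passed the filter on low values.

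When proteins misfold in the endoplasmic reticulum (ER), the sensors ATF6, IRE1 and PERK switch on genes for ER chaperones, for folding enzymes and for the removal of failed proteins, while PERK also slows translation and raises the factor ATF4. In the cytosol the factor HSF1 plays the matching part and raises heat shock proteins, which hold or refold unfolded chains. The liver secretes most plasma proteins, so hepatocytes carry a large ER and high levels of these chaperones at rest.

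RNA came from the livers of 3 WT mice and 3 *β-catenin Δ(ex3)/+* mice, with 1 library per liver. The labels give C57BL/6 as the strain of both groups and an age of 8 weeks. *β-catenin Δ(ex3)/+* mice carry 1 allele of the β-catenin gene *Ctnnb1* without exon 3, which yields a stabilized β-catenin. The study describes 3 routes to this allele from a floxed one. They are an adenovirus that carries Cre, a Cre that is always active under the albumin promoter, and an albumin-promoter Cre that needs tamoxifen, and livers made by the last of these bear the name *β-catenin Δ(ex3)/+* in the study. The labels do not say which route was used for these livers, or whether WT mice were given Cre or tamoxifen. The comparison asks which genes differ in expression between livers with activated and with normal β-catenin.

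The deposited values are FPKM, fragments scaled by transcript length and by the number of mapped fragments, so they can be set side by side between genes of different length. Depth is not stated. A gene with 1 exon and few fragments takes FPKM values in even steps, and the step size gives the depth. The scan was limited to 5 to 30 M fragments (M, mega), a limit set after the data were seen. Over 8644 genes with 1 exon it gave 24.7, 24.6 and 24.4 M fragments for WT replicates 1, 2 and 3. For the *β-catenin Δ(ex3)/+* livers it gave 19.1, 17.0 and 19.6 M. The share of low values on a step was 21.7% to 29.3%, where chance gives 4.0%. Between 30 and 60 M there is a second solution at about 2.0 times these depths. It gave 49.5, 49.3 and 49.0 M for WT and 38.2, 33.9 and 39.1 M for *β-catenin Δ(ex3)/+* livers, with 26.4% to 35.1% on a step. In each library this share was higher than that of the solution under 30 M. The depth is therefore known only up to this factor. Fold changes are on the scale of log2(FPKM + 1), which understates the change of genes with low FPKM. A gene is said to have risen or fallen when its limma adjusted p, corrected over the 13243 genes tested, was under 0.05, and to be differentially expressed when it also changed at least 2-fold.

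Of the 52 genes, 39 rose, 6 fell and 7 did not pass the test in *β-catenin Δ(ex3)/+* livers. Among all genes tested 57.0% passed at any fold, 37.4% upward and 19.6% downward. Differentially expressed were 19 of the 52, all 19 of them higher, against 12.7% of all genes tested, 8.17% higher and 4.52% lower. The 19 were *Hspa5*, *Calr*, *Hyou1*, *Dnajb11*, *Dnajc3*, *Sdf2l1*, *Manf* and *Creld2* among the ER chaperones, *Pdia6*, *Syvn1*, *Edem1* and *Atf3* among other ER stress genes, and *Hspa1a*, *Hspa1b*, *Hsph1*, *Hsp90aa1*, *Bag3*, *Hspb1* and *Hspb8* among the heat shock genes. The median log2 fold change was 0.75 over the 52 genes and 0.14 over all genes tested.

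Both scalings tried, by median ratios and by quantiles, centre the libraries on each other by construction, and the median of all genes was then 0.0081 and -0.020. They do not show whether the upward median comes from the table's scale or from the livers. After these scalings the median of the 52 genes was 0.56 and 0.53. After median-ratio scaling 19 of the 52 were higher and 0 lower at 2-fold or more, beside 6.43% and 5.67% of all genes, and 38 rose and 7 fell at any fold, beside 27.1% and 27.0%. After quantile normalization 16 were higher and 0 lower at 2-fold or more, beside 6.02% and 6.13%, and 34 rose and 7 fell at any fold, beside 25.1% and 29.2%. The 3 genes that dropped below 2-fold there were *Creld2*, *Edem1* and *Atf3*. In 47 of the 52 genes the groups did not overlap, 40 with *β-catenin Δ(ex3)/+* livers higher and 7 lower, whereas 66.0% of all genes tested did not overlap, 43.0% higher and 23.0% lower. For each such gene the exact permutation test, taken on both sides, gives p = 0.1, the smallest that 3 livers against 3 allow.

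**Figure D1:**
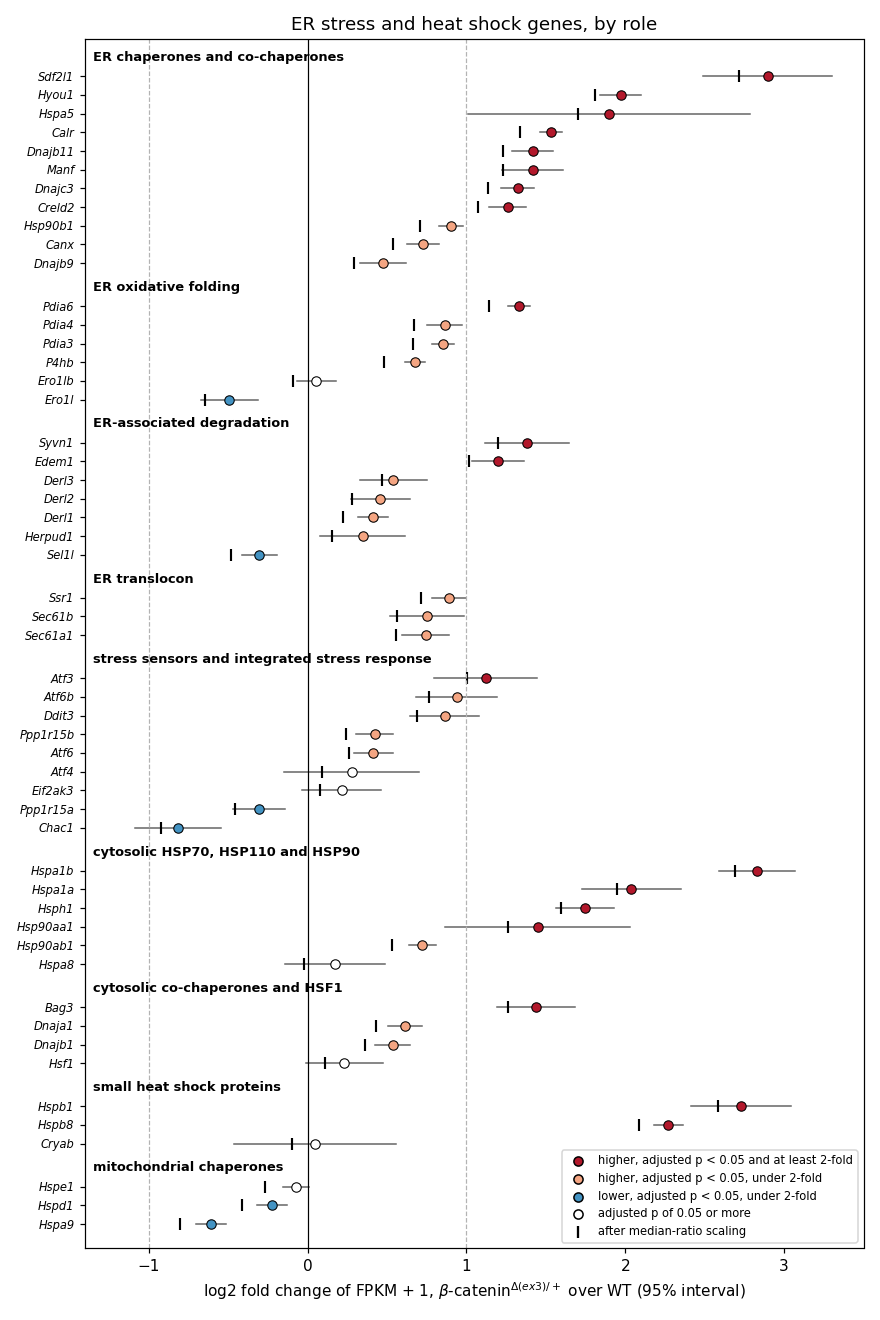
Log2 fold change of FPKM + 1 (*β-catenin Δ(ex3)/+* over WT) of the 52 genes, grouped by role, with 95% intervals from limma. Red marks genes past both thresholds, orange and blue those that rose or fell under 2-fold, white those that did not pass, and ticks the value after median-ratio scaling. The ER chaperones all lie right of 0, the mitochondrial chaperones all left of it, and the sign turns between scalings for *Ero1lb*, *Hspa8* and *Cryab*.

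The groups were checked against their labels. *Ctnnb1* had 25.9, 28.0 and 27.3 FPKM (WT) against 25.4, 25.2 and 25.0 FPKM (*β-catenin Δ(ex3)/+*) (log2 fold change -0.097, standard error 0.042, limma adjusted p = 0.0935). Its call depends on the scaling, with a log2 fold change of -0.28 (limma adjusted p = 0.00224) after median-ratio scaling and -0.40 (limma adjusted p = 0.00106) after quantile normalization. Values per gene cannot show a lost exon. The β-catenin targets *Glul*, which encodes glutamine synthetase, and *Axin2* were both higher, with a WT mean of 103 ± 1.25 FPKM and a *β-catenin Δ(ex3)/+* mean of 626 ± 7.13 FPKM (± SD, n = 3 each) for *Glul* and a WT mean of 1.11 ± 0.416 FPKM and a *β-catenin Δ(ex3)/+* mean of 6.57 ± 0.601 FPKM (± SD, n = 3 each) for *Axin2*. Of the 12 β-catenin genes listed, 9 rose and 1 fell (7 and 2 under either scaling), their summed values being 529.8, 552 and 530.1 FPKM (WT) against 1651, 1671 and 1655 FPKM (*β-catenin Δ(ex3)/+*), with *Glul* the most abundant. All 10 hepatocyte markers were expressed in each liver.

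The groups also differ in more than the allele, and these differences cannot be told apart from the genotype. *Xist*, which is expressed from the inactive X chromosome, had 20.3, 22.2 and 21.1 FPKM (WT) against 0.0146, 0 and 0.0128 FPKM (*β-catenin Δ(ex3)/+*), while the Y-linked *Eif2s3y* had 0.0169, 0 and 0 FPKM (WT) against 9.94, 9.20 and 9.37 FPKM (*β-catenin Δ(ex3)/+*). *Ddx3y*, *Kdm5d* and *Uty*, also Y-linked, averaged at most 0.00519 FPKM in WT livers, against 5.89, 0.646 and 0.653 FPKM, in this order, with the deletion. The libraries of the groups thus differ in these marks of sex, which the labels do not give. Of 13 genes with sex-biased expression in liver, 5 rose and 6 fell of 12 tested, and their sum was 522, 566 and 528 FPKM (WT) against 321, 334 and 334 FPKM (*β-catenin Δ(ex3)/+*), *Sult2a1* being the most abundant and *Cyp4a12a* and *Cyp4a12b* being listed at 0 in all WT livers. All 10 genes of the young liver fell, among them *H19* with 2320.4, 2374 and 2364 FPKM (WT) against 0.0107, 0.0480 and 0.0192 FPKM (*β-catenin Δ(ex3)/+*). *Afp*, α-fetoprotein, had 601, 612 and 610.5 FPKM (WT) against 2.48, 2.38 and 2.81 FPKM (*β-catenin Δ(ex3)/+*), and *Igf2* was listed at 0 in all *β-catenin Δ(ex3)/+* livers and at 836, 803 and 847 FPKM in WT livers. The sum of the 10 was 3894, 3924 and 3962 FPKM (WT) against 8.92, 9.96 and 9.58 FPKM (*β-catenin Δ(ex3)/+*), although both groups are labelled 8 weeks old.

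Of 16 clock genes and genes that follow body temperature, 2 rose and 8 fell of 14 tested (2 and 10 under either scaling), and the sum was 70.7, 70.4 and 69.4 FPKM (WT) against 35.9, 32.4 and 34.3 FPKM (*β-catenin Δ(ex3)/+*), with *Rbm3* the most abundant. *Rbm3* and *Cirbp*, which encode cold-inducible RNA-binding proteins, had log2 fold changes of -1.13 and -1.37, and *Dbp* had -2.11. Of 12 immediate early genes, 3 rose and 2 fell of 9 tested (2 and 2 under either scaling), with sums of 65.8, 56.3 and 64.2 FPKM (WT) against 60.4, 62.7 and 62.5 FPKM (*β-catenin Δ(ex3)/+*) and *Ier2* the most abundant. Of the 10 acute phase genes, 9 rose and 1 fell, and their sum was 5650.2, 5678 and 5722 FPKM (WT) against 12457, 13409 and 13513 FPKM (*β-catenin Δ(ex3)/+*), with *Hpx* the most abundant. *Orm1*, an acute phase glycoprotein, had 0.880, 0.578 and 0.676 FPKM (WT) against 1816, 1857 and 1888 FPKM (*β-catenin Δ(ex3)/+*). The part of sex, maturity, time of day and acute phase in the changes of the stress genes was not tested.

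All 11 ER chaperones rose, 8 of them at least 2-fold; after quantile normalization 10 rose, 7 of them at least 2-fold. Their summed FPKM was 465, 457 and 462 FPKM (WT) against 1149, 1248 and 1257 FPKM (*β-catenin Δ(ex3)/+*), a 2.64-fold ratio of the means. Their median log2 fold change was 1.42, and 1.23 after median-ratio scaling. *Hspa5* (ENSMUSG00000026864, chromosome 2 from 34771970 to 34777547) encodes BiP, the HSP70 of the ER lumen that also holds the stress sensors inactive. It had 45.1, 37.1 and 34.1 FPKM (WT) against 80.5, 196 and 196 FPKM (*β-catenin Δ(ex3)/+*) (log2 fold change 1.896, standard error 0.36, limma adjusted p = 0.00544). *β-catenin Δ(ex3)/+* replicate 1 lies well under the other 2 of its group, yet above all WT livers. Without that liver the log2 fold change was 2.32 (limma adjusted p = 0.00015), and over the 6 fits that each leave out a liver it lay between 1.68 and 2.32.

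*Sdf2l1* (ENSMUSG00000022769, chromosome 16 from 17130138 to 17132383), an ER protein that works with BiP and its co-chaperones, had 8.08, 5.08 and 8.07 FPKM (WT) against 59.1, 54.8 and 60.6 FPKM (*β-catenin Δ(ex3)/+*). Its log2 fold change was 2.90 (limma adjusted p = 2.98e-05). *Hyou1* (ENSMUSG00000032115, chromosome 9 from 44379490 to 44392369), an exchange factor and large relative of HSP70, had 2.34, 2.64 and 2.50 FPKM (WT) against 12.45, 12.6 and 12.98 FPKM (*β-catenin Δ(ex3)/+*) (log2 fold change 1.97, standard error 0.053, limma adjusted p = 1.20e-06). In both genes each *β-catenin Δ(ex3)/+* liver stood apart from every WT liver by several times the spread within a group. *Calr* (ENSMUSG00000003814, chromosome 8 from 84841850 to 84846934), the lectin chaperone calreticulin and the most abundant gene of this role, had 169, 170.0 and 176 FPKM (WT) against 502, 495 and 499.6 FPKM (*β-catenin Δ(ex3)/+*) (log2 fold change 1.53, standard error 0.027, limma adjusted p = 2.31e-07). The replicates of each group differed little, by a factor of 1.01 between the highest and the lowest *β-catenin Δ(ex3)/+* liver.

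The co-chaperones of BiP moved the same way. *Dnajb11* had 15.3, 15.1 and 13.6 FPKM (WT) against 41.6, 40.2 and 40.7 FPKM (*β-catenin Δ(ex3)/+*), and *Dnajc3*, which encodes an HSP40 protein that also inhibits PERK, had 15.6, 15.8 and 15.8 FPKM (WT) against 40.5, 42.6 and 39.5 FPKM (*β-catenin Δ(ex3)/+*). Their log2 fold changes were 1.42 and 1.32, and no *β-catenin Δ(ex3)/+* liver reached down to a WT liver. *Manf*, a secreted ER protein, had 20.4, 17.3 and 21.3 FPKM (WT) against 53.7, 55.2 and 53.1 FPKM (*β-catenin Δ(ex3)/+*). *Creld2*, another ER stress gene, had 20.5, 22.3 and 21.9 FPKM (WT) against 51.2, 53.4 and 54.7 FPKM (*β-catenin Δ(ex3)/+*), and its log2 fold change of 1.26 became 0.97 after quantile normalization. *Hsp90b1*, *Canx* and *Dnajb9* rose under 2-fold, with log2 fold changes of 0.90, 0.73 and 0.47. They encode GRP94, calnexin and ERdj4, and the call of *Dnajb9* was lost after quantile normalization (log2 fold change 0.17, limma adjusted p = 0.0532).

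Of the 6 genes of oxidative folding, 4 rose, 1 fell and 1 did not pass, and only *Pdia6* changed at least 2-fold. *P4hb*, protein disulfide isomerase and the most abundant of the 52 genes, had 336, 333 and 346 FPKM (WT) against 545, 537 and 539 FPKM (*β-catenin Δ(ex3)/+*) (log2 fold change 0.68). *Pdia6* (ENSMUSG00000020571, chromosome 12 from 17266545 to 17284770) had 44.9, 45.1 and 45.5 FPKM (WT) against 114, 116 and 115 FPKM (*β-catenin Δ(ex3)/+*) (log2 fold change 1.33, standard error 0.029, limma adjusted p = 4.79e-07), with narrow and separate groups. The disulfide isomerases *Pdia3* and *Pdia4* rose by log2 fold changes of 0.85 and 0.86. The oxidases that recharge these enzymes did not follow. *Ero1l*, now named *Ero1a*, fell from 4.57, 5.47 and 4.80 FPKM (WT) to 3.32, 3.06 and 3.28 FPKM (*β-catenin Δ(ex3)/+*) (log2 fold change -0.49, standard error 0.073, limma adjusted p = 0.00183). *Ero1lb*, now *Ero1b*, had 3.15, 3.00 and 3.22 FPKM (WT) against 3.29, 3.22 and 3.34 FPKM (*β-catenin Δ(ex3)/+*) and a log2 fold change of 0.055 that did not pass (limma adjusted p = 0.388) and was -0.092 with median-ratio scaling and -0.12 with quantile normalization.

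ER-associated degradation draws failed proteins out of the ER for the proteasome, and of its 7 genes 6 rose and 1 fell, 2 of the 6 at least 2-fold. *Syvn1* (ENSMUSG00000024807, chromosome 19 from 6046576 to 6053712) encodes HRD1, the ubiquitin ligase at the centre of the exit channel, and had 7.55, 5.73 and 7.59 FPKM (WT) against 18.8, 20.8 and 19.2 FPKM (*β-catenin Δ(ex3)/+*) (log2 fold change 1.38, standard error 0.11, limma adjusted p = 0.000117). *Edem1*, which marks glycoproteins for removal, had 10.9, 9.25 and 10.5 FPKM (WT) against 24.7, 24.3 and 25.4 FPKM (*β-catenin Δ(ex3)/+*), with a log2 fold change of 1.200 and of 0.92 after quantile normalization. *Sel1l*, the partner that stabilizes HRD1, went the other way, with 15.5, 14.6 and 14.5 FPKM (WT) against 11.6, 12.1 and 11.9 FPKM (*β-catenin Δ(ex3)/+*) (log2 fold change -0.30, standard error 0.045, limma adjusted p = 0.00197). The groups do not overlap for any of these 3 genes, so partners in the same complex moved in opposite directions. The derlins *Derl1*, *Derl2* and *Derl3* rose by 0.41, 0.46 and 0.54 on the log2 scale. After quantile normalization *Derl1* had 0.14 and *Derl2* 0.19, with limma adjusted p = 0.0524 and 0.0817, past the threshold no longer. *Herpud1*, the most abundant gene of this role, had 77.3, 60.9 and 63.0 FPKM (WT) against 77.3, 91.8 and 86.9 FPKM (*β-catenin Δ(ex3)/+*), and the groups overlap. Its call (log2 fold change 0.35, standard error 0.11, limma adjusted p = 0.0354) was lost with no filter on low values and under both scalings, with log2 fold changes of 0.16 and 0.079. Single livers decide it too, since limma adjusted p was 0.096 without WT replicate 2, 0.101 without WT replicate 3, 0.103 without *β-catenin Δ(ex3)/+* replicate 2 and 0.0929 without *β-catenin Δ(ex3)/+* replicate 3, at log2 fold changes of 0.28 to 0.33; it passed without WT replicate 1 (0.45) and without *β-catenin Δ(ex3)/+* replicate 1 (0.42).

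The 3 translocon genes, whose proteins pass new chains into the ER, all rose under 2-fold, also after each scaling. *Sec61b*, the most abundant, had 34.2, 29.0 and 37.8 FPKM (WT) against 57.8, 57.9 and 55.4 FPKM (*β-catenin Δ(ex3)/+*) (log2 fold change 0.75). *Sec61a1*, the channel itself, and *Ssr1* had log2 fold changes of 0.74 and 0.89, and the groups do not overlap in either.

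The sensors and the integrated stress response were mixed: of 9 genes 5 rose, 2 fell and 2 did not pass. The sensor genes *Atf6* and *Atf6b* rose by 0.41 and 0.94 on the log2 scale. *Eif2ak3*, which encodes PERK, had 2.24, 2.05 and 2.31 FPKM (WT) against 2.99, 2.98 and 2.22 FPKM (*β-catenin Δ(ex3)/+*); its log2 fold change of 0.21 did not pass (limma adjusted p = 0.118) but did without *β-catenin Δ(ex3)/+* replicate 3, the lowest of its group (0.32, limma adjusted p = 0.0149). It was lowest without *β-catenin Δ(ex3)/+* replicate 1 (0.16, limma adjusted p = 0.281). *Atf4*, the most abundant gene of this role, is regulated mainly through its translation and had 40.9, 42.3 and 26.7 FPKM (WT) against 42.2, 44.5 and 44.6 FPKM (*β-catenin Δ(ex3)/+*). WT replicate 3 was low, the groups overlap, and the log2 fold change of 0.28 did not pass (limma adjusted p = 0.217). Without that liver it was 0.072 (limma adjusted p = 0.26), and without WT replicate 2 it was 0.39 (limma adjusted p = 0.125).

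*Ddit3* (ENSMUSG00000025408, chromosome 10 from 127290774 to 127296288) encodes CHOP, a factor that PERK and ATF4 raise in lasting stress, and had 6.01, 6.42 and 5.26 FPKM (WT) against 10.5, 11.8 and 12.3 FPKM (*β-catenin Δ(ex3)/+*) (log2 fold change 0.86, standard error 0.088, limma adjusted p = 0.000367). *Atf3* (ENSMUSG00000026628, chromosome 1 from 191170296 to 191218039), another stress-induced factor, had 0.649, 1.25 and 0.696 FPKM (WT) against 3.22, 2.88 and 2.97 FPKM (*β-catenin Δ(ex3)/+*) (log2 fold change 1.12, standard error 0.13, limma adjusted p = 0.00068). Its log2 fold change was 1.001 under median-ratio scaling and 0.997 under quantile normalization, at the 2-fold limit. Against these, *Chac1*, which degrades glutathione and is a target of ATF4 and CHOP, fell in all *β-catenin Δ(ex3)/+* livers. It had 2.48, 2.03 and 1.77 FPKM (WT) against 0.931, 0.662 and 0.667 FPKM (*β-catenin Δ(ex3)/+*) (log2 fold change -0.82, standard error 0.11, limma adjusted p = 0.00125), and -1.37 with a pseudocount of 0.1. *Ppp1r15a*, whose product GADD34 ends the translation block, also fell, with 4.18, 4.54 and 4.78 FPKM (WT) against 3.68, 3.25 and 3.42 FPKM (*β-catenin Δ(ex3)/+*) (log2 fold change -0.31). Its constitutive relative *Ppp1r15b* rose by 0.42, a call lost after quantile normalization (limma adjusted p = 0.056).

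The other genes of these branches were read from fixed lists. Of 9 genes of the IRE1 branch and its relatives, 5 rose and 2 fell (4 and 3 under either scaling). *Ern1*, which encodes IRE1α, had 1.95, 2.00 and 1.78 FPKM (WT) against 7.86, 8.58 and 8.27 FPKM (*β-catenin Δ(ex3)/+*) (log2 fold change 1.67, standard error 0.059, limma adjusted p = 3.91e-06). Its target *Xbp1*, which IRE1 splices, had 13.4, 12.6 and 14.9 FPKM (WT) against 25.9, 24.8 and 22.9 FPKM (*β-catenin Δ(ex3)/+*) (log2 fold change 0.80, standard error 0.076, limma adjusted p = 0.000262); values per gene do not separate the spliced form. *Creb3l3*, which encodes CREBH, a liver factor of the ER membrane for acute phase and lipid genes, fell from 107, 108 and 112 FPKM (WT) to 43.0, 40.8 and 39.4 FPKM (*β-catenin Δ(ex3)/+*) (log2 fold change -1.39, standard error 0.044, limma adjusted p = 2.42e-06).

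Of 28 listed ATF4 targets 24 were tested, of which 9 were higher and 9 lower, with 5 differentially expressed in each direction and a median log2 fold change of -0.056. Under either scaling 9 were higher and 12 lower, with medians of -0.20 and -0.24. *Gdf15*, a stress hormone, had 1.96, 1.71 and 2.09 FPKM (WT) against 109, 105 and 109 FPKM (*β-catenin Δ(ex3)/+*), and *Fgf21*, a fasting hormone of the liver, moved as far the other way, with 41.3, 42.7 and 43.4 FPKM (WT) against 0.110, 0.345 and 0 FPKM (*β-catenin Δ(ex3)/+*). Their log2 fold changes were 5.22 and -5.25. *Gpt2*, a mitochondrial alanine transaminase, rose by 3.38, and *Phgdh*, which opens the serine pathway, fell with -2.05. The other 6 genes past both thresholds are named after their values were seen. *Asns*, *Psat1* and *Nupr1* were lower, with log2 fold changes of -1.90, -1.41 and -1.32, and *Ddit4*, *Cebpb* and *Aars* were higher, with 1.75, 1.67 and 1.37. Asparagine synthetase (*Asns*) had 11.9, 10.98 and 12.2 FPKM (WT) against 2.82, 2.29 and 2.13 FPKM (*β-catenin Δ(ex3)/+*). The 11 genes around the eIF2α kinases had 7 that rose and 0 that fell, but 4 and 0 with median-ratio scaling and 2 and 2 with quantiles, with 0 past 2-fold in limma each time.

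Cytosolic HSP70, HSP110 and HSP90 genes include the inducible and the constitutive forms, and of 6 genes 5 rose, 4 at least 2-fold. The inducible pair stood near 0 in WT livers. *Hspa1b* (ENSMUSG00000090877, chromosome 17 from 34956436 to 34959238) had 1.03, 0.968 and 0.723 FPKM (WT) against 12.1, 11.6 and 14.0 FPKM (*β-catenin Δ(ex3)/+*) (log2 fold change 2.83, standard error 0.097, limma adjusted p = 3.57e-06), a 13.9-fold ratio of the means. *Hspa1a* (ENSMUSG00000091971, chromosome 17 from 34969190 to 34972156) had 0.239, 0.101 and 0.0342 FPKM (WT) against 3.93, 4.08 and 2.91 FPKM (*β-catenin Δ(ex3)/+*) (log2 fold change 2.04, standard error 0.13, limma adjusted p = 4.35e-05). In both genes the lowest *β-catenin Δ(ex3)/+* liver was far above the highest WT liver. The pair share 48.6% of the *Hspa1a* transcript and 49.9% of the *Hspa1b* transcript in stretches of 100 identical bases, mostly with each other, so how fragments were divided between them is uncertain.

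The constitutive HSP70 gene *Hspa8* had 156, 187 and 159 FPKM (WT) against 213, 158 and 197 FPKM (*β-catenin Δ(ex3)/+*), and its groups overlap. Its log2 fold change of 0.17 did not pass (limma adjusted p = 0.293) and was -0.021 with median-ratio scaling and -0.017 with quantile normalization. With 1 liver left out it ran from 0.082 without *β-catenin Δ(ex3)/+* replicate 1 (limma adjusted p = 0.624) to 0.30 without *β-catenin Δ(ex3)/+* replicate 2 (limma adjusted p = 0.0479), the only such fit that passed. *Hsph1*, which encodes HSP105, an exchange factor for HSP70, had 1.89, 1.59 and 1.66 FPKM (WT) against 8.10, 7.53 and 8.71 FPKM (*β-catenin Δ(ex3)/+*) (log2 fold change 1.75, standard error 0.074, limma adjusted p = 8.52e-06). *Hsp90aa1*, the inducible HSP90, had 11.9, 12.52 and 12.1 FPKM (WT) against 52.3, 29.5 and 27.5 FPKM (*β-catenin Δ(ex3)/+*) (log2 fold change 1.45, standard error 0.24, limma adjusted p = 0.00288). Here *β-catenin Δ(ex3)/+* replicate 1 was the high one, and without it the log2 fold change was 1.16 (limma adjusted p = 0.000105). *Hsp90ab1*, the constitutive form and the most abundant of this role, had 201, 210.0 and 201 FPKM (WT) against 333, 349 and 331 FPKM (*β-catenin Δ(ex3)/+*) (log2 fold change 0.72).

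Among the cytosolic co-chaperones 3 genes rose, 1 of them at least 2-fold. *Bag3*, which couples HSP70 to selective autophagy, had 6.32, 6.48 and 5.03 FPKM (WT) against 17.4, 16.8 and 19.2 FPKM (*β-catenin Δ(ex3)/+*) (log2 fold change 1.44, standard error 0.1, limma adjusted p = 6.76e-05). *Dnaja1*, an HSP40 and the most abundant of this role, had 18.1, 19.4 and 19.4 FPKM (WT) against 29.6, 30.2 and 29.1 FPKM (*β-catenin Δ(ex3)/+*). *Dnajb1*, the HSP40 that heat induces, rose by 0.53 and *Dnaja1* by 0.61 on the log2 scale. *Hsf1*, the gene of the factor itself, which is controlled mostly at the protein, had 1.80, 1.19 and 1.53 FPKM (WT) against 1.88, 1.91 and 2.00 FPKM (*β-catenin Δ(ex3)/+*). Its groups do not overlap, but the log2 fold change of 0.23 did not pass (limma adjusted p = 0.0916). Of the fits with 1 liver left out it passed only without WT replicate 1 (0.31, limma adjusted p = 0.0357), and it was lowest without WT replicate 2 (0.14, limma adjusted p = 0.174).

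Small heat shock proteins bind unfolded chains without ATP, and 2 of the 3 genes rose strongly. *Hspb1* (ENSMUSG00000004951, chromosome 5 from 135887919 to 135889563), which encodes HSP25, had 0.999, 0.946 and 1.58 FPKM (WT) against 14.7, 13.03 and 12.3 FPKM (*β-catenin Δ(ex3)/+*) (log2 fold change 2.73, standard error 0.13, limma adjusted p = 1.33e-05), a 11.3-fold ratio of the means. *Hspb8* (ENSMUSG00000041548, chromosome 5 from 116408491 to 116422864), the partner of BAG3, had 14.3, 13.7 and 14.1 FPKM (WT) against 70.2, 71.0 and 73.4 FPKM (*β-catenin Δ(ex3)/+*) (log2 fold change 2.27, standard error 0.037, limma adjusted p = 1.72e-07). The summed FPKM of the role was 4.87-fold higher in *β-catenin Δ(ex3)/+* livers. *Cryab*, αB-crystallin, had 2.51, 3.41 and 2.63 FPKM (WT) against 2.72, 4.31 and 2.13 FPKM (*β-catenin Δ(ex3)/+*), and its groups overlap. Its log2 fold change of 0.046 did not pass (limma adjusted p = 0.865) and was -0.097 with median ratios and -0.12 with quantiles. With 1 liver left out it ran from -0.17 to 0.21.

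The mitochondrial chaperones were the role in which no gene rose. *Hspa9*, which encodes mortalin, the HSP70 of the matrix, had 109, 112 and 109 FPKM (WT) against 74.9, 70.4 and 70.0 FPKM (*β-catenin Δ(ex3)/+*) (log2 fold change -0.61, standard error 0.038, limma adjusted p = 4.34e-05). *Hspd1* (ENSMUSG00000025980, chromosome 1 from 55077835 to 55088243), which encodes HSP60, had 124, 129.6 and 124 FPKM (WT) against 111, 107 and 104 FPKM (*β-catenin Δ(ex3)/+*) (log2 fold change -0.22, standard error 0.038, limma adjusted p = 0.00333). Its partner *Hspe1* (ENSMUSG00000073676, chromosome 1 from 55088132 to 55091307) encodes HSP10 and starts from the same stretch of DNA on the other strand. It had 117, 119 and 120.2 FPKM (WT) against 116, 110.4 and 111 FPKM (*β-catenin Δ(ex3)/+*), and its log2 fold change of -0.075 did not pass (limma adjusted p = 0.102), while after median-ratio scaling it was -0.27 (limma adjusted p = 0.000846) and after quantile normalization -0.27 (limma adjusted p = 0.000872). All *β-catenin Δ(ex3)/+* livers were below all WT livers in each of the 3 genes, and the summed FPKM of the role was 349, 361 and 354 FPKM (WT) against 302, 288 and 286 FPKM (*β-catenin Δ(ex3)/+*).

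**Figure D2:**
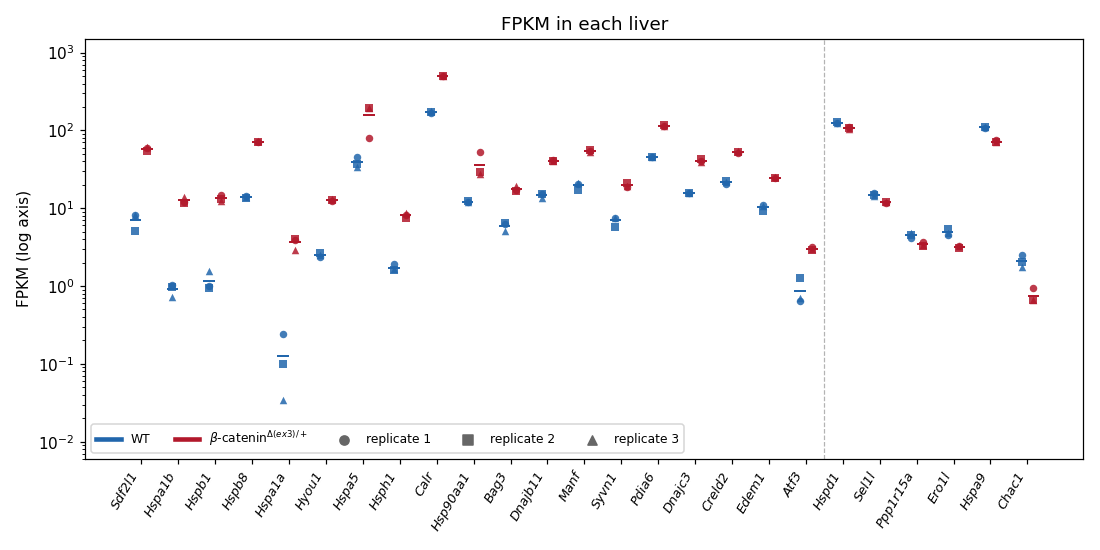
FPKM in each liver (log axis) of the 19 genes that were higher past both thresholds, left of the dashed line, and of the 6 that fell, right of it. Circles, squares and triangles are replicates 1, 2 and 3, bars are group means, blue is WT and red *β-catenin Δ(ex3)/+*. The groups do not overlap in any of these 25 genes, and *Hspa5* and *Hsp90aa1* each have *β-catenin Δ(ex3)/+* replicate 1 apart from the other 2.

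Further lists give the rest of each pathway. Of 207 other genes tested in 12 lists, 106 rose (51.2%) and 29 fell (14.0%), beside 37.4% and 19.6% of all genes tested. With median-ratio scaling 80 rose (38.6%) and 56 fell (27.1%), beside 27.1% and 27.0%, and with quantiles 69 rose (33.3%) and 68 fell (32.9%), beside 25.1% and 29.2%. Past both thresholds 15 were higher (7.25%) and 7 lower (3.38%), beside 8.17% and 4.52%. These counts became 13 and 10 with median ratios and 11 and 10 with quantiles. The median log2 fold change over the 207 was 0.24, and 0.079 and 0.045 under these scalings. For each list the genes higher and lower under both scalings stand in parentheses, the median ratio first. In the glycan and lectin cycle 10 of 12 rose and 1 fell (8 and 1, then 6 and 2). *Os9*, which takes glycoproteins to HRD1, and *Uggt1*, which tests their folding, were past 2-fold as deposited (1.21 and 1.07), *Uggt1* under neither scaling (0.91 and 0.88) and *Os9* not after quantile normalization (0.97). Of 21 other genes of ER-associated degradation tested 15 rose and 0 fell (11 and 0, then 10 and 0), with 0 past 2-fold in limma. Of 30 genes for translocation, signal cleavage and glycosylation 18 rose and 2 fell (15 and 6, then 13 and 7), and *Rpn1*, a subunit of the oligosaccharyl transferase, was past 2-fold as deposited (1.02) and under neither scaling (0.84 and 0.74). Of 23 other disulfide isomerase and redox genes tested 10 rose and 6 fell (7 and 8, then 6 and 9), and *Qsox1*, a sulfhydryl oxidase, was past 2-fold (1.46).

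In the cytosol, 10 of 23 other HSP70, HSP110 and HSP40 genes tested rose and 4 fell (6 and 6, then 6 and 7). *Dnajb2* (1.44), *Dnaja4* (1.26) and *Hspa4l* (1.11), which encode HSP40 proteins and a relative of HSP110, were past 2-fold, *Hspa4l* not after quantile normalization (0.997). Of 16 HSP90 co-chaperones 10 rose and 1 fell (8 and 4, then 7 and 5). The immunophilins *Fkbp4* and *Fkbp5*, which compete for HSP90 in steroid receptor complexes, moved apart, with 47.3, 46.9 and 48.0 FPKM (WT) against 148, 138 and 140.3 FPKM (*β-catenin Δ(ex3)/+*) for *Fkbp4* and 10.4, 10.9 and 11.2 FPKM (WT) against 3.61, 3.51 and 3.49 FPKM (*β-catenin Δ(ex3)/+*) for *Fkbp5*. Of 11 other heat shock factor, BAG and small HSP genes tested 5 rose and 2 fell (3 and 3 each time), with *Hsf4* past 2-fold (1.70). The chaperonin TRiC with prefoldin had 2 that rose and 1 that fell of 14 as deposited, but more lower than higher genes under scaling (1 and 7, then 0 and 12). Its median log2 fold change was 0.0018 as deposited and -0.18 and -0.27 under the scalings. Mitochondrial proteases and import factors had 5 that rose and 1 that fell of 13 (4 and 6, then 3 and 6). Beside all these lists, the genes tested as a whole also shifted under scaling. They had 37.4% higher and 19.6% lower as deposited, 27.1% and 27.0% with median ratios, and 25.1% and 29.2% with quantiles.

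**Figure D3:**
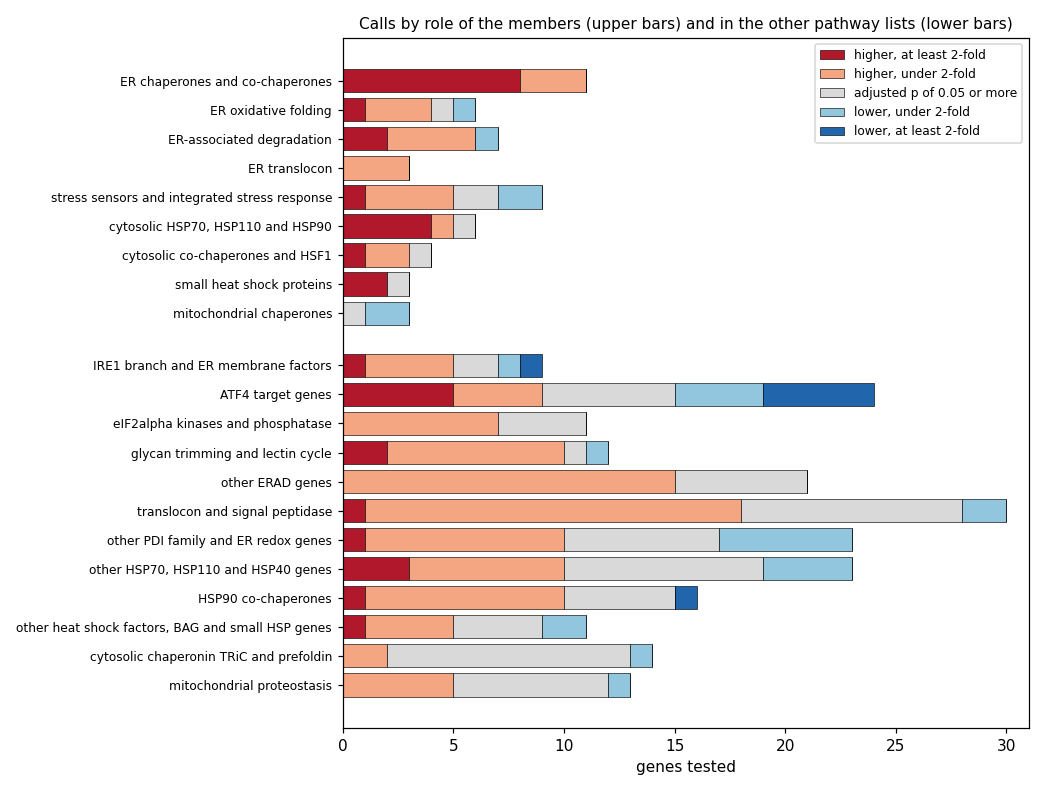
Number of genes tested in each role of the 52 genes (upper bars) and in each further list (lower bars), coloured by call in the table as deposited. Red and orange are genes that rose, at least 2-fold or less, light and dark blue genes that fell, and grey genes that did not pass. ER chaperones rose in all 11 genes, or 10 after quantile normalization. ATF4 targets have 9 that rose and 9 that fell, or 12 that fell under either scaling, and TRiC with prefoldin is mostly grey here but has 7 that fell with median-ratio scaling and 12 with quantiles.

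Levels among the 52 genes span from *P4hb*, with a mean of 439 FPKM over the 6 livers (rank 108 of the table), down to *Derl3*, with 0.631 FPKM. The median of their means was 22.2 FPKM, against 3.24 FPKM for all genes tested. With means over 100 FPKM there were 8 of the 52, and with means under 5 FPKM 12. Together the 52 genes held 0.465%, 0.468% and 0.462% of the summed FPKM of WT livers and 0.768%, 0.764% and 0.767% of that of *β-catenin Δ(ex3)/+* livers. The WT livers differ from each other far less than from the *β-catenin Δ(ex3)/+* livers in this share. Replicates were close: over the 27 of the 52 genes with a mean of at least 20 FPKM the median coefficient of variation was 3.89% for WT and 2.90% for *β-catenin Δ(ex3)/+* replicates, whereas all 1854 such genes had 4.50% and 3.31%.

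Of the 8 genes over 100 FPKM only *Calr* was past 2-fold. In the 5 genes with the largest log2 fold changes as deposited, *Sdf2l1*, *Hspa1b*, *Hspb1*, *Hspb8* and *Hspa1a*, WT means ran from 0.125 FPKM for *Hspa1a* to 14.0 FPKM for *Hspb8*. *Derl3*, with 0.385, 0.284 and 0.311 FPKM (WT) against 0.788, 1.13 and 0.882 FPKM (*β-catenin Δ(ex3)/+*), shows how the scale acts at low values: its log2 fold change was 0.54, and 1.27 with a pseudocount of 0.1. The order of the largest changes depends on it, since with that pseudocount *Hspa1a* had 4.15, *Hspa1b* 3.66, *Hspb1* 3.43 and *Sdf2l1* 3.05.

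The promoters of the 52 genes were searched for motifs, 250 bases before to 50 after each start, as RefSeq gives them for GRCm38.p6. The table of promoters holds 40 of the 52 genes, 2 of them, *Ero1l* and *Ero1lb*, under their newer symbols; it lacks *Hyou1*, *Manf*, *Derl1*, *Sec61a1*, *Atf6*, *Ppp1r15b*, *Hspa8*, *Hsp90aa1*, *Hsp90ab1*, *Hsf1*, *Cryab* and *Hspa9*. The ER stress element, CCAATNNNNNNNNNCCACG on either strand, is a motif bound by ATF6 together with NF-Y. It stands in the promoters of 10 of the 40 genes (25%) and of 37 of all 27025 genes in the table (0.137%). The 10 are *Hspa5*, *Hsp90b1*, *Calr*, *Canx*, *Dnajc3*, *Creld2*, *Pdia6*, *Derl3*, *Syvn1* and *Ero1lb*. Of these 9 rose, 6 of them at least 2-fold, and *Ero1lb* did not pass; their median log2 fold change was 1.29. Of the 30 without it 22 rose, 10 at least 2-fold, 5 fell and 3 did not pass, with a median of 0.80. The sets also differ in role. Of the 10, 6 are ER chaperones, 2 are genes of oxidative folding and 2 of ER-associated degradation. The 30 hold all the translocon, sensor, cytosolic, small heat shock and mitochondrial genes searched. They also hold the ER chaperones *Sdf2l1*, *Dnajb11* and *Dnajb9*, with log2 fold changes of 2.90, 1.42 and 0.47. The difference, and the part of role in it, was not tested.

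All matches in the 10 genes lie before the RefSeq start, and *Hsp90b1* has 2, the nearer of which is shown. The matches are given in windows of 50 bases, or 30 for *Hspa5*, on the strand of the gene. Capitals mark the element, which reads CGTGG first where it lies on the other strand. The search pattern fixes the ends, so they are the same in each by construction, and it leaves the 9 bases between them free.
Hspa5, chr2:34772020-34772049 (+): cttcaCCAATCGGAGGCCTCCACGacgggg
Calr, chr8:84847060-84847109 (-): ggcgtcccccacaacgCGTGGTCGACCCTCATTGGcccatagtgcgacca
Canx, chr11:50325785-50325834 (-): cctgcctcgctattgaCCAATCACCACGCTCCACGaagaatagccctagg
Hsp90b1, chr10:86705518-86705567 (-): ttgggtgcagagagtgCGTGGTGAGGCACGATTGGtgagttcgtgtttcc
Dnajc3, chr14:118937811-118937860 (+): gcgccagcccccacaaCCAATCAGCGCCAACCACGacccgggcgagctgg
Creld2, chr15:88819504-88819553 (+): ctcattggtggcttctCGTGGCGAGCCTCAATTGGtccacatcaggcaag
Pdia6, chr12:17266475-17266524 (+): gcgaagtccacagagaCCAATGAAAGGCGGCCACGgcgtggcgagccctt
Syvn1, chr19:6046516-6046565 (+): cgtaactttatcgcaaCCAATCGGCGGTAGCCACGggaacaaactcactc
Derl3, chr10:75893226-75893275 (+): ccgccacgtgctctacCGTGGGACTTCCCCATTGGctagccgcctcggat
Ero1lb, chr13:12565666-12565715 (+): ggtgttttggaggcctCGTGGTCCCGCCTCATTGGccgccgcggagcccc

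*Hspa5* carries its element 65 to 47 bases before the RefSeq start, behind 3 further CCAAT boxes, and GENCODE M21 places this start farther upstream, so that the element lies in the 5′ UTR of that model. Only 30 bases are shown for it. The CCAAT box alone is common, in 32 of the 40 genes (80%) and in 41.1% of all genes, and it overlaps the element by its own letters.

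A related element of 11 bases, ATTGG and CCACG with any base between, was found in *Herpud1* and *Dnajb11*, 2 of the 40 genes, and in 12 of all 27025 genes (0.0444%). In *Dnajb11* it lies after the start, and in *Herpud1* 52 to 42 bases before it, shown here in capitals.
Herpud1, chr8:94386357-94386406 (+): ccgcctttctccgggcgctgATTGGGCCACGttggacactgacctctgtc

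TGACGTGG, a core for XBP1 and ATF6, was in 0 of the 40 genes and in 0.714% of all, and CTTTGAT, a core for the TCF partners of β-catenin, was in 0 of the 40 and in 4.29% of all. TGACGTCA was found in 1 of the 40, *Ppp1r15a*, and in 2.03% of all genes. TGATGNAA, a core of the amino acid response element that ATF4 binds, was in 3 of the 40, *Atf3*, *Chac1* and *Herpud1* (7.5%), and in 4.51% of all genes. A match to such letters is a description and not a binding site, and a missing one says only that these letters are not in the window.

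The heat shock element of 3 units, GAANNTTC followed by NNGAA, was in *Hsph1*, *Hspd1* and *Hspe1*, 3 of the 40 genes (7.5%), against 0.662% of all. *Hspd1* and *Hspe1* share the same bases, and neither rose. A longer model of *Hspd1* in GENCODE M21 has them in its 5′ UTR. A window of 30 bases is shown on the strand of *Hspe1*, with overlapping matches on both strands in capitals.
Hspe1, chr1:55088053-55088082 (+): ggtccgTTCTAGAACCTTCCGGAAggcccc

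The shorter pair of units GAANNTTC, which is part of the element above, was in 10 of the 40 genes (25%) and in 9.04% of all: *Hspa1a*, *Hspa1b*, *Hsph1*, *Bag3*, *Dnaja1*, *Hspb1*, *Hspb8*, *Hspd1*, *Hspe1* and *Ssr1*. Of these, 6 were differentially expressed, namely *Hspa1a*, *Hspa1b*, *Hsph1*, *Bag3*, *Hspb1* and *Hspb8*; in *Hsph1*, *Bag3* and *Hspb8* the match lies after the start. Of the 30 genes without the pair 10 were differentially expressed. All the ER chaperone, oxidative folding, degradation and sensor genes searched are among these 30, so the sets differ in role too. The difference was not tested. The reverse pair TTCNNGAA was in 4 of the 40, *Hsph1*, *Hspd1*, *Hspe1* and *Eif2ak3* (10%), and in 9.6% of all. The promoters of *Hspa1a* and *Hspa1b* have the same base at 247 of the 250 positions before the start (98.8%). Their last 150 bases are shown with GAANNTTC and the reversed CCAAT box in capitals.
Hspa1a, chr17:34972157-34972306 (-): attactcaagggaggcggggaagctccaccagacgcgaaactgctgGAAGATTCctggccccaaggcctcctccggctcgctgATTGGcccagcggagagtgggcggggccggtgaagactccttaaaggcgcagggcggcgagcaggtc
Hspa1b, chr17:34959239-34959388 (-): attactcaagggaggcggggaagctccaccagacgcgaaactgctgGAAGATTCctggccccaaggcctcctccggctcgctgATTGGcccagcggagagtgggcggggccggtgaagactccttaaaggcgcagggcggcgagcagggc

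Other copies also limit single values. Stretches of 100 bases shared with transcripts of other genes cover 62.8% of the longest coding transcript of *Hspa8*, 47.5% of that of *Hsp90aa1*, 42.7% of that of *Hspb1*, 26.9% of that of *Hspd1* and 20.4% of that of *Hspe1*. For *Hspa5*, *Calr*, *Sdf2l1*, *Hyou1*, *Pdia6*, *Hsph1*, *Bag3* and *Hspb8* the share was 0%. *Hsp90b1* overlaps the short genes *Gm15344* and *Gm25745* on its own strand, so its level is less certain. The library kit keeps strand, but whether the counting used it is not stated, which bears on genes with an overlapping gene on the other strand, such as *Hspd1* with *Hspe1*, *Cryab* with *Hspb2*, *Syvn1* with *Mrpl49* and *Ddit3* with *Mars*.

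Other cells of the liver were read from fixed marker lists; in whole tissue, fewer cells of a type and less RNA per cell cannot be told apart. Hepatocyte markers did not move together: 3 rose and 5 fell of 10, with *Alb* the most abundant and sums of 78348, 79005 and 75484 FPKM (WT) against 41816, 41963 and 41638 FPKM (*β-catenin Δ(ex3)/+*). Stellate cell markers fell in all 9 tested, with sums of 101, 103 and 102 FPKM (WT) against 29.9, 29.5 and 33.0 FPKM (*β-catenin Δ(ex3)/+*) and *Col3a1* the most abundant. Endothelial markers fell in all 10, with sums of 120.5, 122 and 123 FPKM (WT) against 85.3, 82.9 and 86.2 FPKM (*β-catenin Δ(ex3)/+*) and *Clec4g* the most abundant. Erythroid markers fell in 8 of 9, with sums of 3608, 3309 and 3653 FPKM (WT) against 1873, 1836 and 1811 FPKM (*β-catenin Δ(ex3)/+*) and *Hba-a2* the most abundant. Cholangiocyte markers fell in 3 of 5 tested, or 4 under either scaling, with sums of 53.4, 50.4 and 48.9 FPKM (WT) against 26.2, 26.4 and 26.1 FPKM (*β-catenin Δ(ex3)/+*), most of it *Spp1*.

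Kupffer cell and myeloid markers rose in 7 and fell in 2 of 10, with sums of 364, 379 and 379 FPKM (WT) against 589.7, 583 and 573 FPKM (*β-catenin Δ(ex3)/+*) and *Cd5l* the most abundant. *Clec4f*, which marks Kupffer cells, had a log2 fold change of 1.68. The 2 genes that fell were *Marco*, with -1.36, and *S100a8*, which marks neutrophils, with -3.40. Of 8 plasma cell and B cell markers tested 3 rose and 5 fell, and the sums were 76.3, 79.1 and 74.2 FPKM (WT) against 101, 105 and 110.1 FPKM (*β-catenin Δ(ex3)/+*). *Igkc*, the most abundant, had 23.8, 25.0 and 22.4 FPKM (WT) against 76.6, 81.5 and 86.4 FPKM (*β-catenin Δ(ex3)/+*), *Igha* was listed at 0 in all WT livers and, with the deletion, had 12.2, 12.8 and 12.9 FPKM, and *Tnfrsf17* was listed at 0 in all livers. Plasma cells make much ER chaperone RNA, and the part of these cells, or of any other cell type, in the changes above was not tested.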

How the data were processed

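Gene expression of 3 WT livers was set against that of 3 *β-catenin Δ(ex3)/+* livers, as labelled. The deposited table holds FPKM, which the authors made with cutadapt 1.9, HISAT2 2.0.4 and StringTie 1.3.4d; the authors also list DESeq2 and edgeR, which need counts and were not run here. The genome build is not stated, and 28911 genes have the start and end that GENCODE M21 (GRCm38) gives. Depth is known only by the estimate from low values, scanned from 5 to 30 M fragments, and a second solution lies at 2.0 times it.

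For the 13243 genes with a mean of at least 0.5 FPKM, limma 3.58.1 in R 4.3.3 fitted log2(FPKM + 1) by lmFit and a trended eBayes, with Benjamini-Hochberg adjustment; the code was tested on simulated data. Motifs, shared stretches and figures were made in Python 3.11.15 with pandas 2.3.3, numpy 2.4.6 and matplotlib 3.10.9. A symbol with several rows was read from its most abundant row. Named are all 52 genes by role, with values per liver for those past both thresholds, the most abundant of each role and *Hspa5*, *Ddit3*, *Atf4*, *Hspa1a*, *Hspa1b* and *Hsf1*; of each further list at most 4 genes past both thresholds, by size of change, with *Xbp1*, *Ern1* and *Creb3l3*; and checks of the groups. Outside this rule, chosen after values were seen, are 6 more ATF4 targets and *Orm1*, *Clec4f*, *Marco* and *S100a8*. So are the values per liver of *Ero1l*, *Ero1lb*, *Sel1l*, *Derl3*, *Eif2ak3*, *Chac1*, *Ppp1r15a*, *Hspa8*, *Cryab*, *Hspa9* and *Hspe1*. Motifs and stretches were chosen after values were seen. The genes and lists were chosen with earlier results of these data known. *March6*, *Hspb3* and *Ahsp* of the lists are not in the table, *Cryaa* is listed at 0 in all livers, and 0 columns were left unused.

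Alternatives changed 1 choice each. They were a pseudocount of 0.1, a filter at 1 FPKM or none, scaling by median ratios or quantiles, limma with no trend, a replicate block, 6 fits that each drop a liver, a stricter adjusted p of 0.01 and a fold of 1.5.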

Additional observations from a re-analysis of the deposited data

How the results depend on the processing

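Of the 52 genes, 40 kept their direction and their side of the adjusted p threshold in all 13 alternative fits and *Derl3* did in 12, the filter at 1 FPKM leaving it out, and none of the 45 that passed turned its direction. Median log2 fold changes of the 52 genes were 0.81 with a pseudocount of 0.1, 0.56 with median-ratio scaling and 0.53 with quantile normalization, and ran from 0.74 to 0.78 with 1 liver left out. The cause was not tested. A pseudocount of 0.1 gave 2705 differentially expressed genes, 1706 higher and 999 lower, in place of 1680, 1082 and 598, and 1 of the 52 lower, *Chac1*. A threshold of 1.5-fold, which admits more genes by construction, gave 3631 genes, 2369 higher and 1262 lower, and 33 of the 52, 31 higher and 2 lower. Reversed were only genes that did not pass: *Ero1lb* with median-ratio scaling (-0.092) and quantile normalization (-0.12), *Hspa8* (-0.021 and -0.017) and *Cryab* (-0.097 and -0.12), and *Cryab* also ran from -0.17 to 0.21 with 1 liver left out. With the replicate block 1 call was lost, that of *Herpud1* (limma adjusted p = 0.0898), 19 of the 52 genes were differentially expressed, all higher, and of all genes 1673 were, 1075 higher and 598 lower. Livers with the same number are different mice, and the labels give no pairing between them. Their deviations from the group means correlated at 0.027, 0.021 and -0.0054, which cannot show whether they shared a litter or batch. Depth, known only up to a factor of 2.0 (17.0 to 24.7 M or, above the scan limit of 30 M, 33.9 to 49.5 M fragments), limits low genes such as *Derl3* and *Hspa1a* most.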
